A study of Homo sapiens with 6 samples.

Results

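Nuclear pore complexes are the channels through which RNA and protein pass between nucleus and cytoplasm, and the genes described here encode the pore's proteins, the carriers that move cargo through it and the enzymes of the RAN cycle. Members were the genes of 1 deposited table whose symbol begins with NUP, XPO, IPO or TNPO and a digit, or with KPNA or KPNB, plus named RAN cycle, pore and carrier genes. The table holds only genes that passed an adjusted p of 0.05, and the rule found 48 of its 6831. Of these, 46 were protein-coding genes with a known role in transport, and the 2 besides were IPO9-AS1, an antisense RNA gene, and IPO11-LRRC70, a readthrough locus. Among 56 protein-coding genes in the role groups used below, the 46 in the table made up 82.1%. Of all genes that the adjusted p-values imply to have been tested, 45.3% were in it. Being in the table was part of the choice, so the values that follow describe the members and test nothing about them as a group.

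Nucleoporins form stacked rings in the nuclear envelope, with a scaffold, a central channel lined by disordered FG repeats, filaments on the cytoplasmic face and a basket on the nuclear face. Importins bind cargo in the cytoplasm and release it when the GTPase RAN binds them in its GTP form in the nucleus, while exportins bind cargo together with RAN-GTP and release it after GTP hydrolysis in the cytoplasm. The pore is largely taken apart at mitosis and rebuilt afterwards, and new pores are inserted in interphase, so dividing cells need a steady supply of its parts. RAN-GTP also guides spindle assembly and the re-forming of the nuclear envelope.

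MOLM-13 cells, a long-established line from a human acute myeloid leukaemia that carries an MLL (KMT2A) fusion, were used and are labelled wild type in genotype. They were given 50 nM DEG-35, a compound named in the series title as a degrader of both IKZF2 and CK1α, or the solvent DMSO, for 24 h in either case. RNA-seq was done on 3 libraries per group. Whether these were separate cultures is not in the labels, and the p-values measure the spread between libraries, which may be technical. The data were the authors' deposited table of the comparison, which pairs each gene's log2 fold change with its raw and adjusted p.

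The header does not name the numerator of the fold change. Every value was read as DEG-35 over DMSO, so that a negative value means lower mRNA with DEG-35, and with the opposite order every direction below would be reversed. Values for each library, levels and sequencing depth were not analysed here, so neither the spread within a group nor the level of marker genes of the cells could be shown. Errors are standard errors (SE) worked out for each gene from its fold change and p-value, and intervals are 95% intervals from them. A bulk fold change does not separate less RNA per cell from a change in the mix of cells, such as fewer cells in a given phase of the cycle.

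Of 6 genes looked up for MOLM-13, myeloid markers and KMT2A, 5 were listed, and 4 of them were higher with DEG-35. All 4 would stay above 0 with values shifted down by 0.3, although FLT3, at 0.14, would no longer pass at the largest p listed. ITGAM, the CD11b gene of mature myeloid cells, stood at 1.47 ± 0.0956 in the authors' deposited table. CD33 stood at 0.67 ± 0.0749, CD4 at 0.61 ± 0.0561 and FLT3 at 0.44 ± 0.0656 in the authors' deposited table. KMT2A, the gene of the line's fusion, was lower at -0.39 ± 0.0706 in the authors' deposited table, and SPI1 was not listed. These genes moved in the same comparison as the transport genes, and their part in the results below was not tested.

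Transcripts for nuclear transport were lower with DEG-35 in nearly every listed case. Of the 48 members in the authors' deposited table, 47 were lower and 1, the importin alpha gene KPNA5, was higher. Of the 15064 genes that the adjusted p-values imply to have been tested, 45.3% were listed, 24.0% as lower and 21.4% as higher. The members' median log2 fold change was -0.49 in the authors' deposited table, against -0.19 for all its genes. Among the lower genes alone the members' median was -0.49, against -0.45 for all 3613 lower genes of the authors' deposited table. Neither difference was tested. If all log2 fold changes were shifted up by 0.3, as another scaling of the libraries might do, 37 members would stay below 0 and 11 would lie above it. Of those 37, 28 would still reach the largest p listed and 9 would not. The same shift would leave 2680 of all 3613 lower genes below 0.

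**Figure D1:**
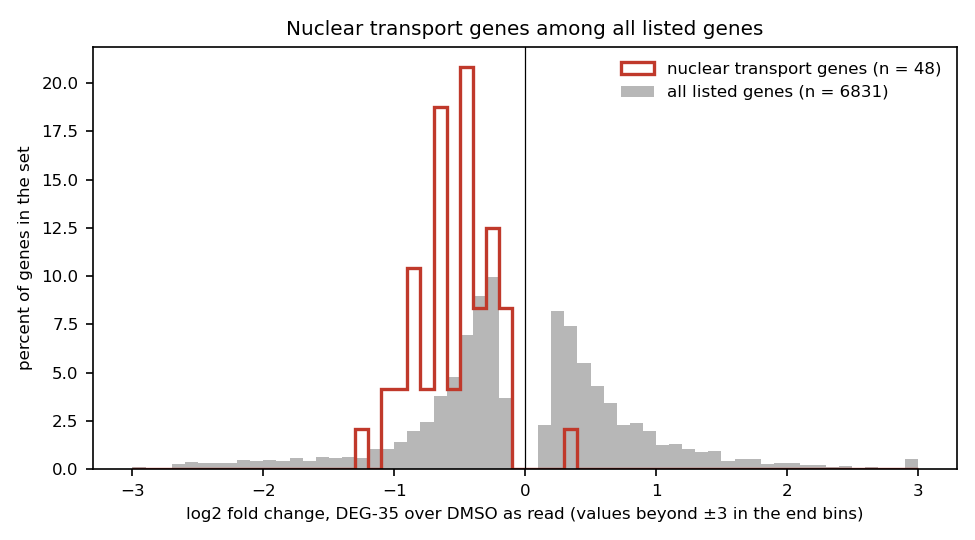
Histogram of log2 fold changes (x axis, DEG-35 over DMSO as read) as a percentage of each set of genes (y axis), for the 48 nuclear transport genes (red outline) and all 6831 listed genes (grey), which include them. The gap around 0 is where genes did not pass. All but 1 of the transport genes lie left of 0, and 10 of them would move to its right with all values shifted up by 0.3.

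The falls were graded and mostly moderate. Among the members in the authors' deposited table, 3 had a log2 fold change of -1 or below, 20 lay between -1 and -0.5, and 25 were closer to 0 than 0.5. Of all 3613 lower genes listed, 614 were lower by at least 1 and 1594 by at least 0.5. These made up 4.08% and 10.6% of all genes tested, most of which were not listed, whereas every member was listed by choice. The 3 that fell most in the authors' deposited table were KPNA2, which was 2.39-fold lower, RANBP1, 2.14-fold lower, and NUP107, 2.12-fold lower. By size of fall they held places 447, 546 and 560 among the 3613 lower genes of the authors' deposited table. At an adjusted p below 0.01 the number of members was 44, and 36.8% of all genes tested passed. The members just inside the threshold in the authors' deposited table were IPO8 (adjusted p = 0.0385), IPO7 (adjusted p = 0.0333) and XPO5 (adjusted p = 0.0248), and no values were held for genes just outside it. At the members' median implied SE of 0.0664, a log2 fold change of about 0.15 was the smallest that could be listed.

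**Figure D2:**
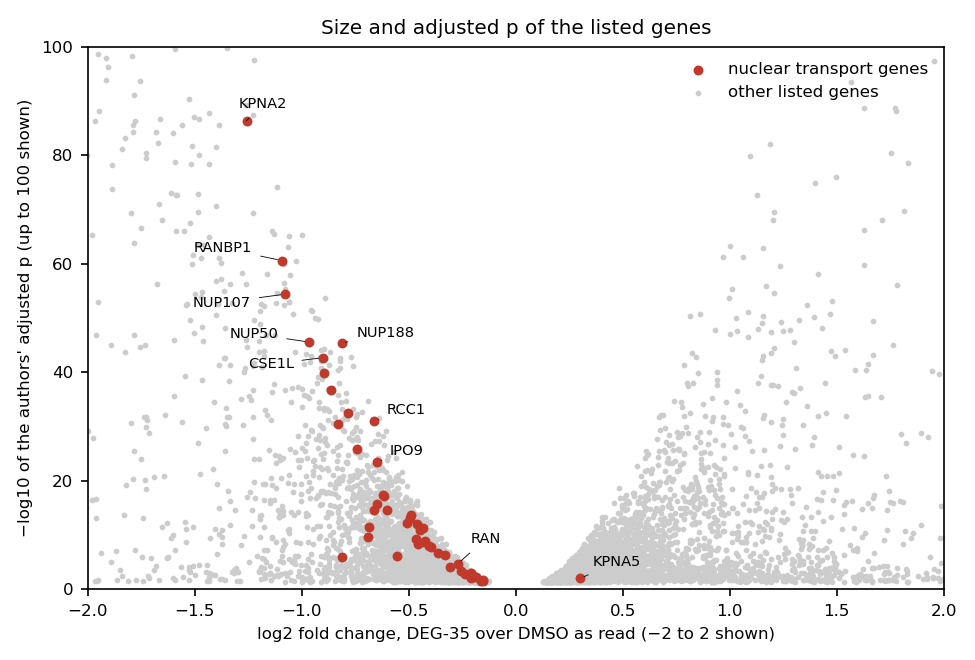
Log2 fold change (x axis, DEG-35 over DMSO as read) against −log10 of the adjusted p (y axis) for the nuclear transport genes (red) and other listed genes (grey) of the authors' deposited table. KPNA2, RANBP1 and NUP107 stand farthest out, and KPNA5 is the 1 red point on the right. RAN, close to 0, would cross to the right with all values shifted up by 0.3.

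Promoters of the members at both ends of this range are shown because the genes moved together, so that the DNA before the genes that fell most can be set beside that of genes that hardly fell. Each runs from 250 bases before to 50 bases after the gene's start, from RefSeq on GRCh38.p14, 5′ to 3′ on the gene's own strand. Of the 48 members 43 had an entry. RANBP1, KPNB1, KPNA5, NUP43 and XPO7 had none, so the set consists of the 3 lowest and the 3 highest of the others. Capitals mark matches on either strand to any of 5 motifs. The cell cycle homology region, or CHR, was searched as TTTGAA. E2F sites were searched as TTCCCGC, as well as in the forms written TTTGGCG and, likewise, TTTCGCG. The CCAAT box was searched by the letters of its name. An E-box was searched as CACGTG. For the factor NRF1 the core of its palindromic site was searched as GCATGCG, whose matches on the 2 strands can overlap and then count as 1 place. In the 6 promoters printed no match of one motif overlapped a match of another.
KPNA2 (chr17:68035485-68035784, plus strand): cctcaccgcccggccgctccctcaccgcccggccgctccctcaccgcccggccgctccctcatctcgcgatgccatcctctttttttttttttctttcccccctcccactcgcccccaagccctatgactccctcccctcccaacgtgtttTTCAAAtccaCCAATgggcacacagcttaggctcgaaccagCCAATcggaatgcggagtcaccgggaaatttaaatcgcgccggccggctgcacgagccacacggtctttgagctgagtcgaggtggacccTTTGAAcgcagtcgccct
NUP107 (chr12:68686728-68687027, plus strand): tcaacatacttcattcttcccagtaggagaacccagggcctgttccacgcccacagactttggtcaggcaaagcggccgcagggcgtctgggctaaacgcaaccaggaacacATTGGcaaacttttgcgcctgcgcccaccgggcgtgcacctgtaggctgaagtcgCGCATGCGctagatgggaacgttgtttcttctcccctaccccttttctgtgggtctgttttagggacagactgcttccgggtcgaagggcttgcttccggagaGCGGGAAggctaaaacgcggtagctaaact
NUP50 (chr22:45163675-45163974, plus strand): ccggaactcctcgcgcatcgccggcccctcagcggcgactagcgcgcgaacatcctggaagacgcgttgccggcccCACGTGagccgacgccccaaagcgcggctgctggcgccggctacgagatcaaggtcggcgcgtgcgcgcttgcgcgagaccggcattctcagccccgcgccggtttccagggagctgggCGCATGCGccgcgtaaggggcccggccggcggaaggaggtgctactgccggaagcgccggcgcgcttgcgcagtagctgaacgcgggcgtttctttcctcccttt
IPO8 (chr12:30695820-30696119, minus strand): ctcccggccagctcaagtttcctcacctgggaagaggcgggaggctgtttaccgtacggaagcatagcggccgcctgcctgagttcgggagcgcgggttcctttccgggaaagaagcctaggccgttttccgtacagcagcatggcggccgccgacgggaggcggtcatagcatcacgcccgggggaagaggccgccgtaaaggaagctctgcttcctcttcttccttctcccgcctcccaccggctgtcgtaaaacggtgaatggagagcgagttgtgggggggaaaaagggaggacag
XPO5 (chr6:43575989-43576288, minus strand): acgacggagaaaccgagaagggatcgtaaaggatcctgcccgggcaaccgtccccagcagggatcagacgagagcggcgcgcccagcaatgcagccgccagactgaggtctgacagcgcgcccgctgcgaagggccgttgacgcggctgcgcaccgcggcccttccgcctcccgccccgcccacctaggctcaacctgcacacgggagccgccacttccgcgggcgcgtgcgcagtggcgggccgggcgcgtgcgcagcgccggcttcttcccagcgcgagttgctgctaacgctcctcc
IPO7 (chr11:9384402-9384701, plus strand): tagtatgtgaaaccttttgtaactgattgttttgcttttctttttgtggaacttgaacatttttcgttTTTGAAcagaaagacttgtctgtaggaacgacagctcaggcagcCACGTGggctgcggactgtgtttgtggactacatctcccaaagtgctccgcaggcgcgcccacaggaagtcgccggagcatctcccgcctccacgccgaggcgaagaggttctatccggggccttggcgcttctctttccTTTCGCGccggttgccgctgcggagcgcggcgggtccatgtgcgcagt

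KPNA2, at the low end, had 2 CHR matches and 2 CCAAT boxes in this window, NUP107 had an E2F word, a CCAAT box and an NRF1 word, and NUP50 had an E-box and an NRF1 word. IPO8 and XPO5, at the high end, had no match to the 5 motifs, and IPO7 had 1 CHR, 1 E2F and 1 E-box match. As background, CHR and E2F elements are bound by the DREAM and RB-E2F complexes, which hold cell cycle genes down in arrested cells. A CHR word stood in 8 of the 21 promoters of members lower by at least 0.5 (38.1%) and in 3 of the 22 of members lower by less (13.6%), against 15.4% of all 27305 promoters. An E2F word stood in 9 of those 21 (42.9%) and in 5 of those 22 (22.7%), against 9.39% of all promoters. Among all listed genes with an entry, an E2F word stood in 22.6% of 2763 lower genes and in 10.1% of 2224 higher genes. A CHR word stood in 11.8% of those lower genes and in 9.40% of those higher genes, both below its share of all promoters. Shares of CCAAT boxes differed less between the sets, at 47.6%, 40.9% and 35.7% for the larger falls, the smaller falls and all promoters. An E-box stood in 9.52% of promoters of members with the larger falls, in 18.2% with the smaller falls and in 7.43% of all promoters. The NRF1 word stood in 5 of the 21 and in 1 of the 22 promoters, against 4.13% of all promoters. Among the listed lower and higher genes, NRF1 words stood in 7.49% and 5.98%. E-boxes stood in 11.4% and 9.26% of these, and CCAAT boxes in 39.7% and 35.3%. A match is a string of letters and not a shown binding site, and the motifs and the 0.5 limit were chosen after the values had been seen.

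**Figure D3:**
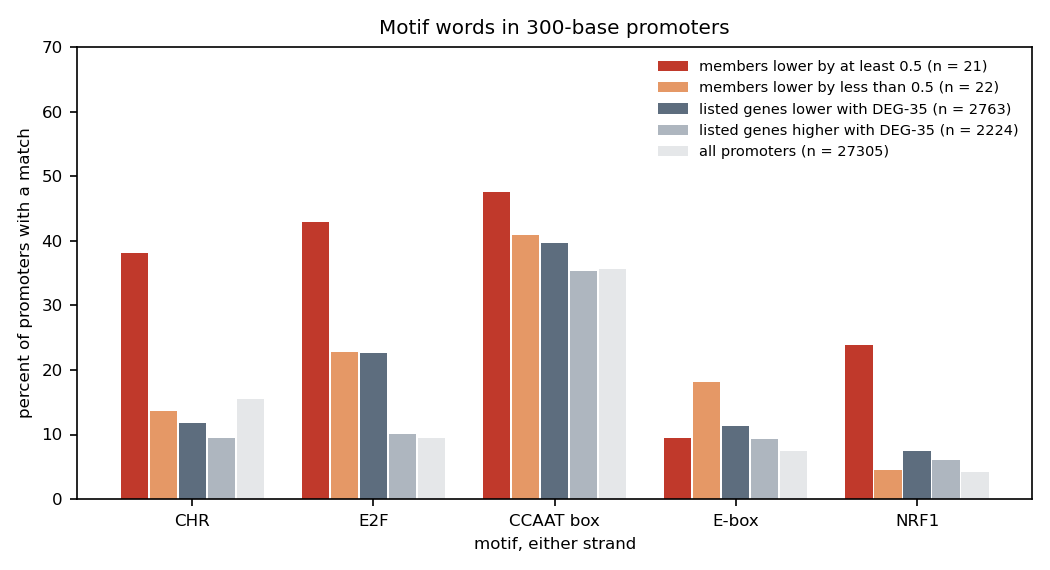
Percentage of promoters (y axis) with at least 1 match to each motif (x axis) on either strand. Bars stand for members lower by at least 0.5 on the log2 scale, members lower by less, all listed lower genes, all listed higher genes and all RefSeq promoters. The first bar reaches 38.1% for CHR and 42.9% for E2F, against 15.4% and 9.39% of all promoters.

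Listed pore genes of the role groups were all lower with DEG-35. NUPL2, now NUP42, is outside these groups by its older symbol and was listed as higher, at 0.19. Of 26 pore genes in 6 positions, 24 were listed, all 24 of them lower, and their median was -0.58 in the authors' deposited table. The share listed was 92.3%, against 45.3% of all genes tested, of which 24.0% were listed as lower. This difference was not tested. With all values shifted up by 0.3, TPR and NUP133 would be higher. NUP98, whose product carries FG repeats and links the rings, and RANBP2, the giant protein of the cytoplasmic filaments that also has SUMO ligase activity, were not listed. Such genes either failed the threshold or were left out of the authors' test.

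All 8 genes of the outer ring group were listed and lower, against 24.0% of all genes tested. They encode the Y complex apart from ELYS, which is the product of AHCTF1, and a subunit that is cut from the NUP98 product. This complex coats the membrane on both faces of the pore and also binds kinetochores in mitosis. Its members fell unequally in the authors' deposited table, between -1.08 ± 0.0680 (implied SE) for NUP107 and -0.24 ± 0.0686 for NUP133, whose products join end to end in the stem of the Y. Their 95% intervals in the authors' deposited table, -1.21 to -0.95 for NUP107 and -0.37 to -0.10 for NUP133, did not overlap. NUP85, in a short arm of the Y, stood at -0.74 ± 0.0680, and the β-propeller genes NUP37 and NUP43 at -0.62 ± 0.0692 and -0.61 ± 0.0687 in the authors' deposited table. NUP160, in another arm, stood at -0.43 ± 0.0675 in the authors' deposited table. The 2 lesser falls besides NUP133 were those of SEH1L, at -0.40 ± 0.0660, and SEC13, at -0.31 ± 0.0727 in the authors' deposited table. Products of these genes also serve outside the pore, in the GATOR2 complex of mTORC1 signalling and, for SEC13, in the COPII coat. With all values shifted up by 0.3, NUP133 would be higher, and NUP160, SEH1L and SEC13 would stay below 0 but no longer pass.

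All 5 inner ring genes were listed and lower, against 24.0% of all genes tested, with a median of -0.79 in the authors' deposited table. All 5 would stay below 0 with values shifted up by 0.3, although NUP93 would then no longer pass. The inner ring is the scaffold that joins the membrane to the central channel. NUP155 was 1.86-fold lower (-0.90 ± 0.0660, adjusted p = 1.27e-40) and NUP188 1.76-fold lower (-0.81 ± 0.0562, adjusted p = 4.58e-46) in the authors' deposited table. NUP205, a large scaffold protein related to NUP188, was next in the authors' deposited table, 1.72-fold lower (-0.79 ± 0.0639, adjusted p = 2.87e-33). The intervals of these 3 genes overlapped. NUP35, which contacts the membrane, stood at -0.55 ± 0.105 and NUP93, the linker that anchors the channel proteins, at -0.43 ± 0.0598 in the authors' deposited table.

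Both membrane-anchored members were lower, against 24.0% of all genes tested, and close to each other in size. NDC1, which holds the pore in the membrane, stood at -0.86 ± 0.0662, and NUP210, whose product forms a ring in the space between the membranes, at -0.83 ± 0.0698 in the authors' deposited table. These values remain below 0 with a shift of 0.3. In the nuclear basket the 3 genes spread widely in the authors' deposited table: NUP50, a cofactor that helps release importin alpha cargo, fell most, at -0.97 ± 0.0665 (adjusted p = 2.69e-46). NUP153 stood at -0.49 ± 0.0633 and TPR, the coiled-coil filament of the basket, at -0.26 ± 0.0656 in the authors' deposited table, and TPR alone of the 3 would be higher with all values shifted up by 0.3. The intervals of NUP50 and NUP153 in the authors' deposited table, -1.10 to -0.84 and -0.62 to -0.37, did not overlap.

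Listed channel and cytoplasmic genes of the role groups were all lower. With all values shifted up by 0.3 each would stay below 0, but NUP54, RAE1, NUP88 and NUP214 would no longer pass at the largest p listed. The FG nucleoporins of the central channel stood at -0.65 ± 0.0759 for NUP62 and -0.43 ± 0.0665 for NUP54 in the authors' deposited table. On the cytoplasmic face 4 of the 5 role group genes were listed and lower, against 24.0% of all genes tested. NUPL2, the mRNA release gene now named NUP42, was not counted among the 5 and was higher. AAAS, which encodes the β-propeller protein ALADIN, stood at -0.60 ± 0.0733 and RAE1, an mRNA export factor that also acts at the spindle, at -0.46 ± 0.0747 in the authors' deposited table. NUP88 stood at -0.41 ± 0.0676 and its partner NUP214, at which mRNA is released, at -0.33 ± 0.0616 in the authors' deposited table. NUP210L and NUP62CL, paralogs of pore genes, were not listed.

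**Figure D4:**
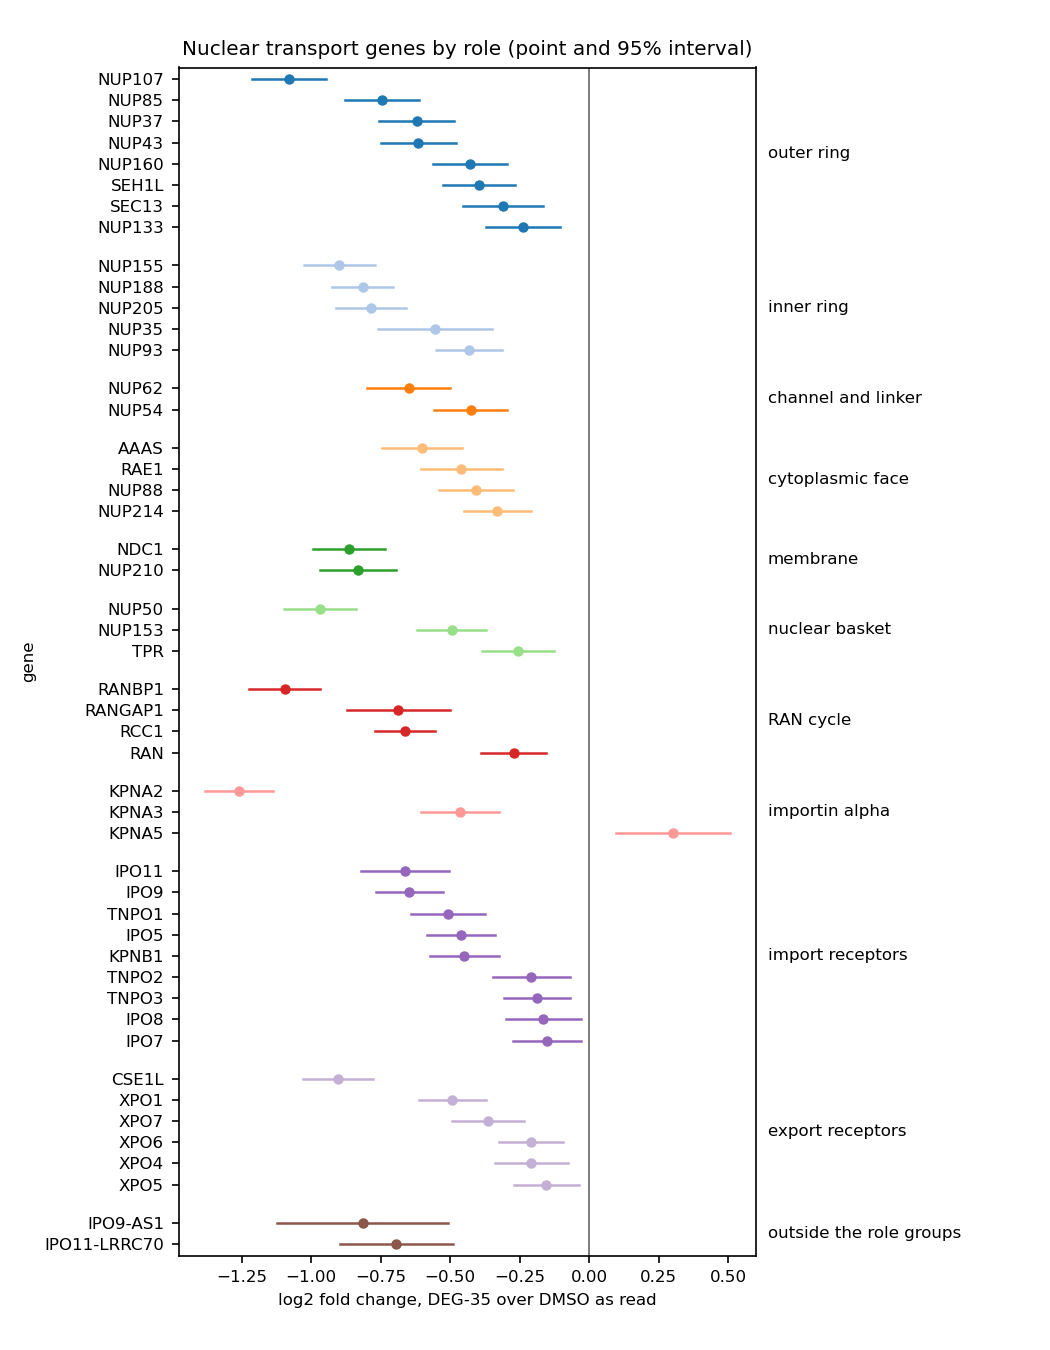
Log2 fold change (x axis, DEG-35 over DMSO as read) of each member (y axis) with its 95% interval from the implied SE, grouped by role and ordered by value within a role. KPNA2 is lowest at -1.26 and KPNA5 alone lies above 0. Points between -0.3 and 0, such as RAN, NUP133 and TPR, would turn higher with all values shifted up by 0.3.

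All 4 RAN cycle genes were listed and lower, against 24.0% of all genes tested. The GTPase gene fell less than the genes of its regulators. RANBP1, which helps RANGAP1 discharge RAN-GTP from carriers, stood at -1.10 ± 0.0653 (adjusted p = 2.46e-61) in the authors' deposited table. RANGAP1, the GTPase activator at the cytoplasmic face, was 1.61-fold lower (-0.69 ± 0.0945) in the authors' deposited table. RCC1, the chromatin-bound exchange factor that makes RAN-GTP, was 1.58-fold lower in the authors' deposited table (-0.66 ± 0.0552). RAN itself was 1.21-fold lower in the authors' deposited table (-0.27 ± 0.0593, adjusted p = 2.19e-05) and would be higher with all values shifted up by 0.3. The interval of RAN in the authors' deposited table, -0.39 to -0.16, overlapped none of those of its 3 regulators, of which the nearest, that of RANGAP1, ran from -0.87 to -0.50. RefSeq names 9 pseudogenes after RAN, and the authors' treatment of reads shared with such copies was not given in the sources used here.

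Importin alpha genes encode the adaptors that read the classical nuclear localisation signal and join it to importin beta. The share of them listed, 42.9%, was near the 45.3% of all genes tested, so the count says little about the family. Of 7 genes 3 were listed in the authors' deposited table, 2 lower and 1 higher, and their signs would hold with a shift of 0.3 either way, although with the shift down KPNA5 would come to 0.00 and no longer pass. KPNA2, the subtype known for high levels in dividing and tumour cells, stood at -1.26 ± 0.0629 (adjusted p = 3.76e-87), or 41.8% of the DMSO level, in the authors' deposited table. KPNA3, of another subfamily, stood at -0.46 ± 0.0712 (adjusted p = 5.59e-10) in the authors' deposited table. KPNA5, of the subfamily of KPNA1 and KPNA6, was 1.23-fold higher (0.30 ± 0.104, adjusted p = 0.0106) in the authors' deposited table. The 95% intervals of these 3 genes in the authors' deposited table, -1.38 to -1.14, -0.60 to -0.33 and 0.10 to 0.51, overlapped nowhere. KPNA1, KPNA4, KPNA6 and KPNA7 were not listed. KPNA5 was also less precisely measured than most, with an implied SE of 0.104 against the members' median of 0.0664, and RefSeq names 3 pseudogenes after KPNA2.

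CSE1L, the exportin that returns importin alpha to the cytoplasm, was the lowest of the export receptors, 1.87-fold lower (-0.90 ± 0.0642, adjusted p = 2.10e-43) in the authors' deposited table. All 6 export receptor genes were in the list as lower, against 24.0% of all genes tested. Their median was -0.29 in the authors' deposited table. Next came XPO1 (CRM1), the exporter of proteins with leucine-rich export signals and the target of selinexor, at -0.49 ± 0.0617 (adjusted p = 1.81e-14) in the authors' deposited table. XPO7 stood at -0.36 ± 0.0661 in the authors' deposited table and would no longer pass with a shift up by 0.3. The 3 that remain, XPO6, which exports actin with profilin, XPO4, an exporter of the translation factor eIF5A, and the microRNA precursor exporter XPO5, stood at -0.21 ± 0.0588, -0.21 ± 0.0662 and -0.15 ± 0.0598 in the authors' deposited table. These last 3 would be higher with all values shifted up by 0.3. The interval of CSE1L in the authors' deposited table, -1.03 to -0.78, overlapped with none of the other 5.

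Import receptors of the importin beta family were lower in 9 of 11 cases and not listed in 2, IPO4 and IPO13. The share listed was 81.8%, against 45.3% of all genes tested. The listed median was -0.45 in the authors' deposited table. IPO11 and IPO9, an importer of histones and other basic proteins, stood at -0.66 ± 0.0805 and -0.65 ± 0.0619, and TNPO1, which carries hnRNP proteins such as HNRNPA1, at -0.51 ± 0.0675 in the authors' deposited table. IPO5, an importer of ribosomal proteins, stood at -0.46 ± 0.0619 and KPNB1, or importin beta itself, at -0.45 ± 0.0632 in the authors' deposited table. The lesser falls were those of TNPO2 at -0.21 ± 0.0710, TNPO3, a carrier of SR splicing factors, at -0.19 ± 0.0601, IPO8 at -0.16 ± 0.0688 and IPO7 at -0.15 ± 0.0619 in the authors' deposited table. These 4 would be higher with all values shifted up by 0.3. The paralogs TNPO1 and TNPO2 had intervals of -0.64 to -0.38 and -0.35 to -0.07 in the authors' deposited table, which did not overlap.

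The 2 members outside the role groups lie over an importin gene: IPO11-LRRC70 joins IPO11 to LRRC70. IPO9-AS1 stood at -0.81 ± 0.158 and IPO11-LRRC70 at -0.69 ± 0.104 in the authors' deposited table, both with intervals that overlap those of IPO9 and IPO11. In GENCODE release 29 the exons of IPO9-AS1 overlap those of IPO9 on the opposite strand over 232 bases. They also overlap those of NAV1, which was not listed, over 380 bases. Strand use in counting was not given in the sources used here, so the reads of each pair may not be separate. IPO11 shares 1279 exon bases on its own strand with LRRC70, which was not listed. It also shares 428 with KIF2A, a kinesin gene that stood at -0.36 in the authors' deposited table (adjusted p = 5.05e-06). RCC1 likewise shares 242 exon bases on its own strand with SNHG3, a small nucleolar RNA host gene that stood at -0.14 in the authors' deposited table (adjusted p = 0.0430). NUP62 shares 336 exon bases on its strand with IL4I1, which stood at -0.31 in the authors' deposited table (adjusted p = 0.0309).

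Exon length was set beside the fold changes. Over 47 members with exons in GENCODE release 29, Spearman's rho between log2 fold change and summed exon length was 0.21. All these values come from the same 6 libraries, and the correlation is a description with no test. The 48 genes lie on 18 chromosomes. Implied SEs ran from 0.0552 for RCC1 to 0.158 for IPO9-AS1, and their median of 0.0664 was below the 0.0891 of all listed genes. A low SE makes a gene easier to list, so precision was part of how the members were chosen.

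By its current RefSeq symbols the same rule takes 58 protein-coding genes, 2 more than the role groups hold, because the table uses older symbols for them. Both were listed: NUPL1, now NUP58, a partner of NUP62 and NUP54 in the channel, was lower at -0.79 ± 0.0654 (adjusted p = 4.34e-32) in the authors' deposited table. NUPL2, now NUP42, which works with GLE1 in mRNA release, was higher at 0.19 ± 0.0767 (adjusted p = 0.0286) in the authors' deposited table. It would be lower with all values shifted down by 0.3. With NUPL1 counted, every gene of the NUP62, NUP54 and NUP58 channel complex was listed as lower. NUP54 would keep its sign but no longer pass with a shift up by 0.3.

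Other pore and transport genes, a list of 17 outside the rule, had 12 listed members, 11 lower and 1 higher, with a median of -0.43 in the authors' deposited table. The share listed was 70.6%, against 45.3% of all genes tested. With all values shifted up by 0.3, NUTF2, GLE1 and SNUPN would be higher. The largest change of this list in the authors' deposited table was that of SENP1, a SUMO protease found at the pore, at -0.89 ± 0.0792. NXT1, the partner of the mRNA exporter NXF1, stood at -0.68 ± 0.0960, RCC2 at -0.54 ± 0.0563 and the XPO1 cofactor RANBP3 at -0.52 ± 0.0835 in the authors' deposited table. AHCTF1 (ELYS), which starts pore assembly on chromatin, stood at -0.45 ± 0.0671 in the authors' deposited table and would no longer pass with a shift up by 0.3. POM121 and POM121C, near-identical membrane nucleoporins, were among the 5 genes not listed.

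Listed mRNA export genes went both ways. The list of 19 had 11 genes in the table, 9 lower and 2 higher, and their median was -0.29 in the authors' deposited table. The 57.9% listed was not far above the 45.3% of all genes tested. Of the lower genes, THOC1, ENY2, CHTOP and MCM3AP would be higher with all values shifted up by 0.3. ALYREF, an adaptor that hands mRNA to NXF1, stood at -0.94 ± 0.0913, the helicase gene DDX39A at -0.90 ± 0.0721 and THOC3 at -0.78 ± 0.117 in the authors' deposited table. DDX39B, the paralog of DDX39A and a subunit of the TREX complex, went the other way at 0.49 ± 0.175 (adjusted p = 0.0141) in the authors' deposited table. With a shift down by 0.3 it would stay above 0, at 0.19, but no longer pass. SARNP stood at -0.35 ± 0.0819 and THOC6 at -0.33 ± 0.115 in the authors' deposited table, and neither would pass with a shift up by 0.3. NXF1, the main export receptor of mRNA, was the other higher gene, at 0.14 ± 0.0605 (adjusted p = 0.0477) in the authors' deposited table. It would be lower with a shift down by 0.3.

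**Figure D5:**
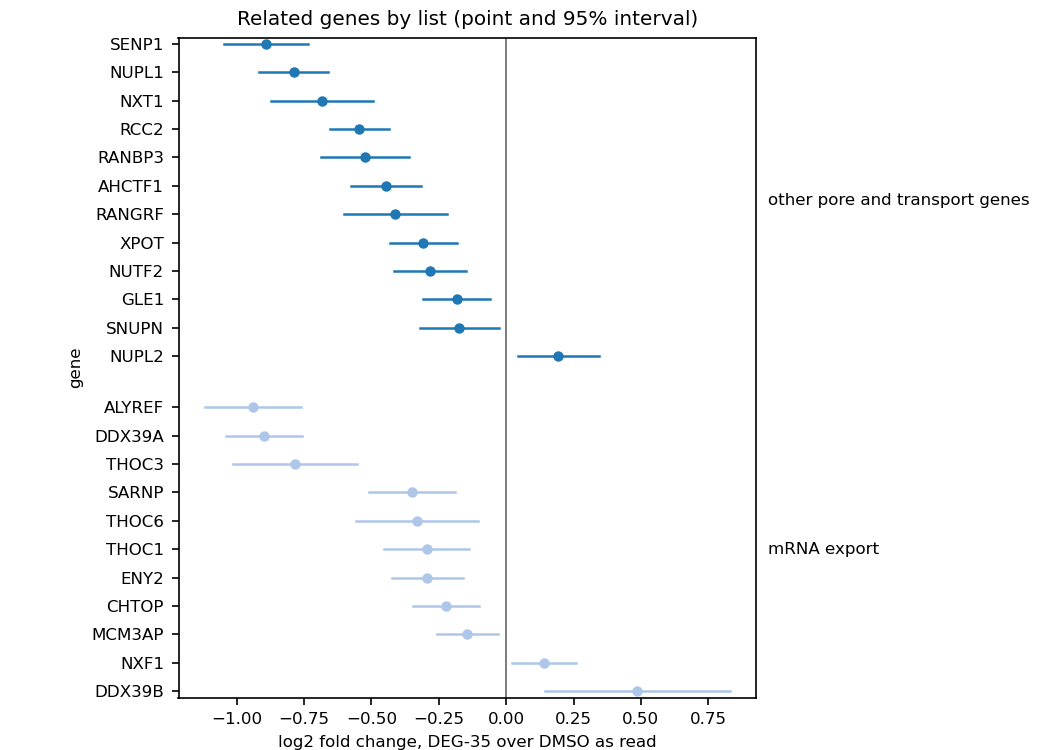
Log2 fold change (x axis, DEG-35 over DMSO as read) with 95% intervals from the implied SE for the listed genes (y axis) of the 2 related lists. NUPL2, NXF1 and DDX39B lie above 0 and the other 20 genes below it. NUPL2 and NXF1 would be lower with all values shifted down by 0.3, and 7 genes between -0.3 and 0 would be higher with a shift up by 0.3.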

How the data were processed

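RNA from MOLM-13 cells, 3 libraries with DEG-35 and 3 with DMSO, was turned, per the labels' protocols, into mRNA libraries with the SMARTer kit. The submitters' processing notes name the build hg19 and, with no version or role, DESeq2, featureCounts and STAR. The data are 1 table in which the authors deposited, per the file headers, 1 log2 fold change per gene with its p-value before and after adjustment, and no adjusted p reaches 0.05. Shrinkage of fold changes was not given in the sources used here. Depth is unknown.

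No new test of genes was made: the plan was to use the authors' adjusted p-values where the file held only their comparison. For each of 2789 genes with a p above 1e-04, the adjusted p times rank over p lay within 0.0413% of 15064, the number of tests a Benjamini-Hochberg adjustment implies. The implied SE is the absolute log2 fold change over the normal quantile of the two-sided p, which assumes a Wald test. Both steps were run on data simulated with these same formulas, which checks the code but not whether the formulas hold here. Members, lists, roles and motifs were chosen with earlier results of these data known. Every member is named, and of related lists the genes with the largest changes, up to 6, plus genes that went against the others, that a shift would turn or that were not listed. Some genes of the related lists are not reported here. All 48 symbols matched RefSeq. Promoters come from RefSeq on GRCh38.p14 and exon overlaps from GENCODE release 29, not from hg19. Tools were SciPy 1.17.1, NumPy 2.4.6, pandas 2.3.3 and Matplotlib 3.10.9 under Python 3.11.15. Alternatives were an adjusted p of 0.01, Bonferroni adjustment over 15064 tests, size limits of 0.5 and 1, an implied SE of at most 0.2, role groups only, and shifts of 0.3 either way.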

Additional observations from a re-analysis of the deposited data

How the results depend on the processing

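No paired analysis was possible because the table holds no values for single libraries, and for the same reason no replicate could be left out. Of the members, 44 passed at an adjusted p below 0.01 and 36 with Bonferroni adjustment over 15064 tests, all lower, so KPNA5, the single higher member, was lost in both (0 higher). Of all genes tested, 36.8% passed at an adjusted p below 0.01. Ranked by p among all listed genes, IPO9-AS1 at place 2699 passed Bonferroni adjustment and RAN at place 3227 did not. So at least 2699 and fewer than 3227 of all 15064 genes tested passed it. A size limit of 0.5 on the log2 scale left 23 members and a limit of 1 left 3, all lower (0 higher), by construction. The members' median of -0.49 became -0.74 with the limit of 0.5, and -0.19 or -0.79 with all values shifted up or down by 0.3. The shift up left 37 members lower and 11 higher, and 2680 lower and 4151 higher among all 6831 listed genes. Role groups alone changed the median by less than the median implied SE and the members' counts by less than 1.5 times. No member had an implied SE above 0.2, so that limit left counts and median unchanged by construction.

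Of 38 listed genes in the 4 other lists, 34 lower and 4 higher, Bonferroni adjustment kept 20, all lower (0 higher). An adjusted p below 0.01 left 1 higher, and a shift up or down by 0.3 gave 13 or 2 higher. Shifted up, 19 genes changed sign: IPO7 came to 0.15, XPO5 to 0.15, IPO8 to 0.14, TNPO3 to 0.11, XPO4 to 0.0928, TNPO2 to 0.0918, XPO6 to 0.0895, NUP133 to 0.0626, TPR to 0.0449, RAN to 0.0284, MCM3AP to 0.16, SNUPN to 0.13, GLE1 to 0.12, PIAS2 to 0.10, CHTOP to 0.0779, LEMD3 to 0.0658, NUTF2 to 0.0165, ENY2 to 0.0072 and THOC1 to 0.0051. Another 18 genes kept their sign with the shift up but would no longer pass at the largest p listed, as would 3 with the shift down. Of the 48 members and these 38 genes together, named here or not, 73 stayed past an adjusted p of 0.01 and 13 did not. Bonferroni adjustment kept 56 of them and lost 30. Shifted down, NXF1 came to -0.16 and NUPL2 to -0.11. The size limit of 0.5 and the shifts on the median, and all alternatives for the other lists except an adjusted p of 0.01 were chosen after seeing the data.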

Other observations

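Genes of the nuclear envelope and lamina around the pore were mostly lower with DEG-35. The 12 genes of this list had 9 in the table, of which 8 were lower and 1 was higher, and their median was -0.61 in the authors' deposited table, and LEMD3 would turn higher with all values shifted up by 0.3. The share listed was 75.0%, against 45.3% of all genes tested. TMPO, which encodes the lamina-associated LAP2 proteins, was 3.36-fold lower (-1.75 ± 0.0609), below every pore gene, in the authors' deposited table. LBR, the lamin B receptor gene, stood at -1.06 ± 0.0623, and the B-type lamin genes LMNB1 and LMNB2 at -1.06 ± 0.0609 and -0.92 ± 0.0896 in the authors' deposited table. LMNA, the A-type lamin gene, was the 1 higher gene, 1.34-fold (0.42 ± 0.105, adjusted p = 2.25e-04) in the authors' deposited table. With a shift down by 0.3 it would stay above 0, at 0.12, but no longer pass, and it did not pass with Bonferroni adjustment.

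The SUMO pathway, which modifies RANGAP1 and tethers it to RANBP2 at the pore, had 6 of the 7 genes reported here in the table, all 6 lower, and their median was -0.46 in the authors' deposited table. The share listed was 85.7%, against 45.3% of all genes tested. PIAS2 would turn higher with all values shifted up by 0.3. SAE1, a subunit of the SUMO-activating enzyme, was 2.04-fold lower (-1.03 ± 0.0612, adjusted p = 2.95e-61), and its partner UBA2 1.52-fold lower (-0.60 ± 0.0639) in the authors' deposited table. SUMO3 stood at -0.61 ± 0.0604 in the authors' deposited table. Neither list was tested against other genes.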
